A study of Homo sapiens with 8 samples.

Results

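WNT10A, JAG1 and BMP6 encode extracellular ligands of the Wnt, Notch and BMP pathways, and their transcripts were followed in myeloma cells given an inhibitor of the kinase IKKβ. The array annotation assigns 8 features to them, 2 to WNT10A, 3 to JAG1 and 3 to BMP6, of 15246 features in all. The genes were chosen with their ratios against solvent already known, over all times and at each time, so these ratios are given as a description and without a test. WNT10A lay below the array median on 8 of 8 arrays, with a mean log2 ratio over the 3 times of -0.71 ± 0.17 (SE, n = 8), or 0.61 on the linear scale if ratios are inhibitor over solvent, the likely but unstated direction, and 1.64 if they are the reverse. JAG1 lay above it on 8 of 8 arrays at 0.56 ± 0.19, a linear ratio of 1.47 (0.68 with the sign turned), and so did BMP6 at 0.40 ± 0.13, a linear ratio of 1.32 (0.76 with the sign turned). Unless said otherwise, SEs here and below treat the arrays as independent and equally spread. The arrays in fact differed in spread and fell into blocks, described below.

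WNT10A is a secreted, lipid-modified Wnt protein that binds Frizzled receptors together with an LRP co-receptor and so stabilises β-catenin, which then acts with factors of the TCF and LEF family. JAG1 is a membrane-bound Notch ligand; it is presented by a neighbouring cell, and its binding lets γ-secretase free the Notch intracellular domain, which joins RBPJ on DNA. BMP6 is a secreted member of the TGF-β superfamily that signals through serine/threonine kinase receptors to SMAD1, SMAD5 and SMAD9, and is known as a regulator of iron balance through hepcidin and as a restraint on plasma cell growth. Notch ligands are known for contacts between myeloma cells and marrow stroma. IKKβ frees NF-κB from its IκB inhibitors, and WNT10A belongs to a published NF-κB signature of myeloma that was built in part on these arrays.

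The cells were L363, an established human line labelled as multiple myeloma from bone marrow. Each of 8 2-colour arrays set Cy5-labelled cDNA of cells given 12.5 µM MLN120B, a small-molecule IKKβ inhibitor, at 37 °C against Cy3-labelled cDNA of L363 cells given DMSO, the solvent. The inhibitor was present for 8 h (2 arrays), 12 h (3 arrays) or 24 h (3 arrays). All groups are the same cell line, and the labels do not say whether samples came from separate cultures, so errors and p-values cover the variation among these 8 samples alone, and part or all of it may be technical.

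Ratios carry no level of expression, so the labelled cell type could only be looked up: features of the plasma cell genes SDC1, TNFRSF17, PRDM1, XBP1, IRF4 and CD38 had values on 8 of 8 arrays. The direction, inhibitor over solvent, is likely but not stated in the sources used here; with the opposite sign every direction given would turn. Between 6344 and 13007 features had a value on an array, and the SD over features ran from 0.21 to 1.42. The labels' database numbers fall into 3 blocks: block 1 is made up of both arrays numbered sample 3 (12 h, 24 h), block 2 of sample 2 (8 h) with sample 1 (12 h, 24 h), and block 3 of sample 1 (8 h) with sample 2 (12 h, 24 h). Block 2 had the SDs from 1.00 to 1.42 and block 3 those from 0.21 to 0.28. The part of this spread in the results was not tested.

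The sequence before each gene's start is shown because the inhibitor acts on NF-κB and WNT10A and the other 2 genes lay on opposite sides of the median. Below are the 250 bases upstream of the start in RefSeq (GRCh38.p14), 5′ to 3′ on the gene's strand. Capitals mark matches, on either strand, to the κB consensus, the NF-κB binding motif. The windows are chr2:218880602-218880851 on the plus strand for WNT10A, chr20:10674000-10674249 on the minus strand for JAG1 and chr6:7725849-7726098 on the plus strand for BMP6.
WNT10A: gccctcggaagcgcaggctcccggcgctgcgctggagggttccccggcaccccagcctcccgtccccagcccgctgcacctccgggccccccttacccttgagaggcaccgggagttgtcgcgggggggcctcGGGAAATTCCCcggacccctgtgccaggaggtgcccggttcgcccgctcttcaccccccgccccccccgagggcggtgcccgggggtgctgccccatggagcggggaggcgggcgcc
JAG1: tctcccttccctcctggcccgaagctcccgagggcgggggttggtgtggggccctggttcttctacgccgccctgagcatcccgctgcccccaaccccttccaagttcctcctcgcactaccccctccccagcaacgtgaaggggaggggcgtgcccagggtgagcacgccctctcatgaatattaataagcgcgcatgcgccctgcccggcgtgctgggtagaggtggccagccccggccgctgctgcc
BMP6: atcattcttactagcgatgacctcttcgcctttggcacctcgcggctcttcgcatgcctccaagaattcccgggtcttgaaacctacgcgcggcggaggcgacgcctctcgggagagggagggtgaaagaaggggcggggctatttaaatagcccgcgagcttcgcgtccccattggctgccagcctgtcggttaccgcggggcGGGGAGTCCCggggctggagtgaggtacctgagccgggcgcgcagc

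The window of WNT10A held the letters GGGAAATTCCC, from 117 to 107 bases upstream of the start, which match the κB consensus on the plus strand and, shifted by 1 base, on the minus strand. The window of BMP6 held GGGGAGTCCC from 46 to 37 bases upstream, which matches on both strands at the same place. The window of JAG1 held no match within these letters. Of 35116 windows of the same length before the starts of 27305 genes, 9.96% held a match to the consensus, and 0.148% held GGGAAATTCC on either strand, a string chosen after it was seen in WNT10A. The windows of WNT10A, JAG1 and BMP6 were 77.6%, 68.4% and 64.4% G and C, against a median of 58% over all windows. A match is a run of letters and shows no binding.

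WNT10A was read by 2 features with values on all 8 arrays, and both lay below 0 on every array. Feature 1 stood at -0.09 and -0.27 for samples 1 and 2 at 8 h, at -1.34, -0.17 and -1.19 for samples 1, 2 and 3 at 12 h, and at -1.54, -0.46 and -1.41 for samples 1, 2 and 3 at 24 h. Feature 2 stood at -0.20 and -0.78 at 8 h, at -1.72, -0.33 and -1.38 at 12 h, and at -0.36, -0.27 and -0.64 at 24 h, in the same order of samples. The samples of block 3 gave the smallest sizes on both features at 8 h, 12 h and 24 h, and those of blocks 1 and 2 the larger ones. The features differed by a median of 0.29 on an array, and by most, 1.19, on sample 1 at 24 h. Over the arrays feature 1 averaged -0.81 ± 0.62 and feature 2 -0.71 ± 0.56 (SD, n = 8).

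**Figure D1:**
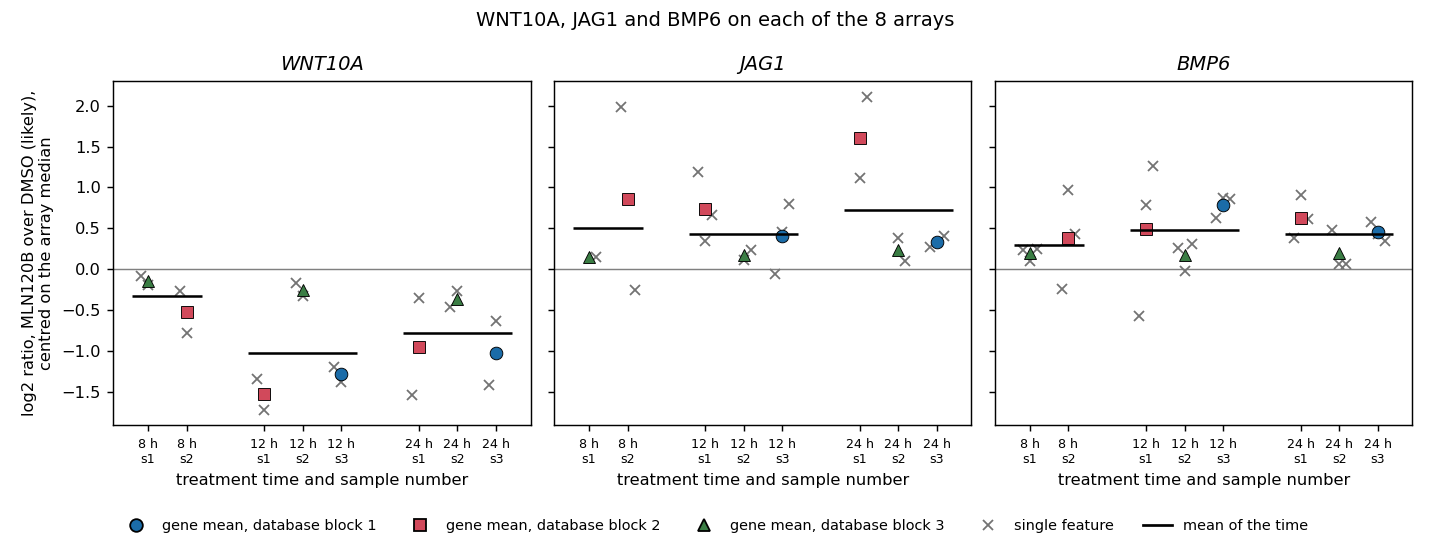
Centred log2 ratio of WNT10A, JAG1 and BMP6 (vertical axis) on each array, by treatment time and sample number; coloured symbols are the mean of a gene's features, with colour and shape for the database block, crosses are single features, and bars are the mean of a time. All 8 gene means lie below 0 for WNT10A and above 0 for JAG1 and BMP6, while single features of JAG1 and BMP6 fall below 0 on some arrays.

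With its features averaged, WNT10A had a mean log2 ratio of -0.33 ± 0.27 at 8 h (SD, n = 2), -1.02 ± 0.68 at 12 h and -0.78 ± 0.36 at 24 h (SD, n = 3 each). The gene stood at -0.14 and -0.52 on the 8 h arrays, at -1.53, -0.25 and -1.29 on the 12 h arrays and at -0.95, -0.37 and -1.03 on the 24 h arrays, in the order of sample numbers. The ranges of the 3 times overlapped. Among rows with values on all 8 arrays, 1.30% lay below 0 on every array, 45 of 3460, which is a background and not support, since WNT10A was chosen on these ratios.

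JAG1 was read by 3 features, of which only feature 3 had a value on all 8 arrays. Feature 3 stood at 0.15 and -0.26 for samples 1 and 2 at 8 h, at 0.66, 0.23 and 0.80 at 12 h, and at 2.11, 0.09 and 0.41 at 24 h. Its value on sample 1 at 24 h lay far above the other 7 arrays, which stood between -0.26 and 0.80, and its mean was 0.52 ± 0.72 (SD, n = 8).

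Feature 1 of JAG1 had 4 values, 1.98 on sample 2 at 8 h, 1.19 and -0.06 on samples 1 and 3 at 12 h, and 0.27 on sample 3 at 24 h. Feature 2 had 5 values, 0.35, 0.11 and 0.46 at 12 h and 1.11 and 0.38 on samples 1 and 2 at 24 h. On sample 2 at 8 h features 1 and 3 lay 2.24 apart and on opposite sides of 0, so the gene's mean of 0.86 there describes neither of them. On the 7 arrays with at least 2 features, the features shared a sign on 5.

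The mean of its features put JAG1 at 0.50 ± 0.50 at 8 h (SD, n = 2), at 0.44 ± 0.28 at 12 h and at 0.73 ± 0.77 at 24 h (SD, n = 3 each). By array these were 0.15 and 0.86 at 8 h, 0.73, 0.17 and 0.40 at 12 h, and 1.61, 0.23 and 0.34 at 24 h. The 24 h mean rested on sample 1: without that array it was 0.29, and the mean over the 3 times was 0.41. From feature 3 alone the 8 h value was -0.06, on the other side of 0 from the gene's mean.

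BMP6 was read by 3 features with values on all 8 arrays. Feature 3 lay above 0 on 8 of 8 arrays, at 0.24 and 0.43 at 8 h, 1.26, 0.30 and 0.85 at 12 h, and 0.61, 0.06 and 0.35 at 24 h, in the order of sample numbers. Feature 2 lay above 0 on 7 of 8, from -0.03 on sample 2 at 12 h to 0.97 on sample 2 at 8 h. Feature 1 lay above 0 on 6 of 8, and both values below 0 came from arrays of block 2, namely -0.25 (8 h, sample 2) and -0.58 (12 h, sample 1). The 3 features averaged 0.22 ± 0.42, 0.51 ± 0.42 and 0.51 ± 0.38 over the arrays (SD, n = 8), so their means differed by less than the spread between arrays.

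The mean of its features put BMP6 at 0.29 ± 0.14 at 8 h (SD, n = 2), at 0.48 ± 0.30 at 12 h and at 0.43 ± 0.22 at 24 h (SD, n = 3 each). By array these were 0.19 and 0.39 at 8 h, 0.49, 0.18 and 0.78 at 12 h, and 0.63, 0.20 and 0.45 at 24 h. The SD of 0.22 over the 8 arrays was smaller than the 0.51 of WNT10A and the 0.50 of JAG1, and the 3 arrays of block 3 gave the lowest value of each time. Above 0 on every array, as JAG1 and BMP6 were, lay 48 of 3460 rows with 8 values, or 1.39%, again a background only.

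Because arrays differed in spread, each gene was also placed among the named genes of its own array. The genes were chosen on these ratios, so their places are a description and not support. On the 8 arrays between 0.889% and 21.6% of named genes had a lower ratio than WNT10A, with a median of 8.66%. WNT10A was the 34th lowest of 3712 genes on sample 3 at 24 h and the 84th lowest of 4286 on sample 3 at 12 h, and it came nearest to the middle at 8 h, with 16.3% and 21.6% of genes lower. JAG1 lay above 79.0% to 97.6% of genes, and highest on sample 1 at 24 h. BMP6 lay above 70.4% to 98.7% of genes, and highest on samples 3 at 12 h and 24 h, at 98.7% and 96.2%. With the sign of the ratios turned, 78.4% to 99.1% of named genes would be lower than WNT10A, 2.41% to 21.0% lower than JAG1 and 1.26% to 29.5% lower than BMP6, and the ranks of WNT10A would count from the highest. In units of each array's SD, WNT10A ranged from -2.93 to -0.37, JAG1 from 0.56 to 1.61 and BMP6 from 0.27 to 1.34.

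**Figure D2:**
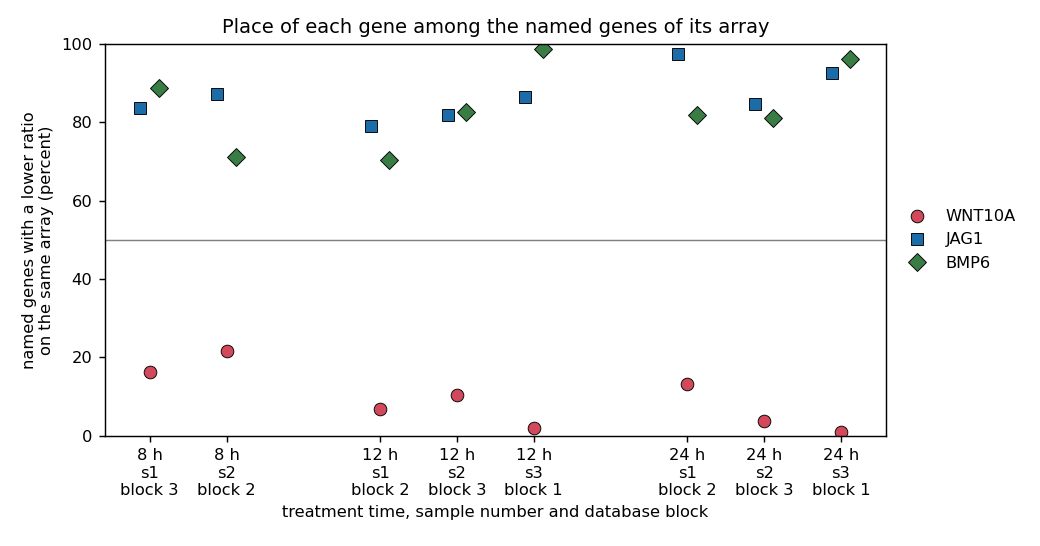
Share of the named genes of an array with a lower log2 ratio than WNT10A, JAG1 or BMP6 (vertical axis, percent), by treatment time, sample number and database block; each symbol is a gene on 1 array and the line marks 50%. WNT10A stays at or under 21.6% on all 8 arrays, and JAG1 and BMP6 at or above 70.4%, a description only, as the genes were chosen on their ratios.

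The time course was compared with limma's linear model over all 5411 rows with enough values. WNT10A differed by -0.69 ± 0.44 between 12 h and 8 h, by -0.45 ± 0.44 between 24 h and 8 h, and by 0.24 ± 0.39 between 24 h and 12 h (SE). JAG1 differed by -0.07 ± 0.47, 0.22 ± 0.47 and 0.29 ± 0.42, and BMP6 by 0.19 ± 0.32, 0.14 ± 0.32 and -0.06 ± 0.29, in the same order. The order of times by mean was 12 h, 24 h and 8 h from the lowest for WNT10A, and 12 h, 8 h and 24 h from the lowest for JAG1. For BMP6 it was 8 h, 24 h and 12 h, and the ranges of neighbouring times overlapped for all 3 genes. These orders hold for averaged features only. At 8, 12 and 24 h WNT10A averaged -0.18, -0.90 and -1.14 on feature 1, and -0.49, -1.14 and -0.42 on feature 2. JAG1's gene means drew on differing features by array, and its feature 3 averaged -0.06, 0.57 and 0.87. BMP6 averaged -0.01, 0.10 and 0.48 on feature 1, 0.54, 0.54 and 0.46 on feature 2, and 0.34, 0.80 and 0.34 on feature 3.

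Within blocks 2 and 3, which hold 1 array per time, WNT10A differed between 24 h and 8 h by -0.43 and -0.23, JAG1 by 0.75 and 0.08, and BMP6 by 0.25 and 0.004. Between 24 h and 12 h WNT10A differed by 0.26, 0.58 and -0.12 in blocks 1, 2 and 3, so the sign varied between blocks. For each of the 3 differences between times limma called 0 of 5411 rows at an adjusted p of 0.05, or 0%, with 44 rows (0.813%), 64 rows (1.18%) and 37 rows (0.684%) at an unadjusted p under 0.05 for 24 h against 8 h, 12 h against 8 h and 24 h against 12 h.

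For all 3 genes the block means lay farther apart than the time means. WNT10A averaged -1.16 in block 1, -1.003 in block 2 and -0.25 in block 3. JAG1 averaged 0.37, 1.07 and 0.19, and BMP6 0.62, 0.50 and 0.19, in the same order. All 3 genes were thus smallest in size in block 3, whose arrays had the narrowest spread over all features. Without block 2, the widely spread arrays, the mean over times was -0.54 ± 0.18 for WNT10A, 0.24 ± 0.11 for JAG1 and 0.33 ± 0.13 for BMP6 (SE, n = 5), so the size for JAG1 was lower by over 1.5 times. Without block 3 the means were -0.97 ± 0.25, 0.80 ± 0.29 and 0.52 ± 0.25. With every array kept and the block as a random term, the SEs were 0.20, 0.21 and 0.15, beside 0.17, 0.19 and 0.13 without it. With the block as a fixed term they were 0.12, 0.12 and 0.10, and these leave out the spread between blocks.

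Over the 3 times limma called 0 of 5411 rows, or 0% in either direction, and 184 rows, 3.4%, had an unadjusted p under 0.05. That model leaves out the database block, although deviations from the time means correlated from 0.15 to 0.32 in all 7 pairs of arrays from the same block and different times. The 7 pairs are not independent, as the deviations of the 2 arrays at 8 h are exact opposites. The pairs of 12 h and 24 h arrays correlated at 0.29, 0.20 and 0.26 in blocks 1, 2 and 3. With the block as a fixed term 6 rows passed, 2 higher and 4 lower, and 640 had an unadjusted p under 0.05; these p-values leave out the spread between blocks. Without the block, limma also called 0 at 8 h, 12 h and 24 h, with 130 rows (2.4%), 166 rows (3.07%) and 109 rows (2.01%) at an unadjusted p under 0.05.

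Other genes of the 3 pathways, from a list of 160 genes, lay on both sides of the array median. Features were annotated to 76 of the 160, and 52 were tested, among them WNT10A, JAG1 and BMP6. Of the other 49, limma's test over all rows called 0 higher and 0 lower over the 3 times, against 0% of all rows; at an unadjusted p under 0.05 there was 1 higher and 1 lower. Their median was 0.016, with 27 above 0 and 22 below, beside -0.008 over all rows.

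**Figure D3:**
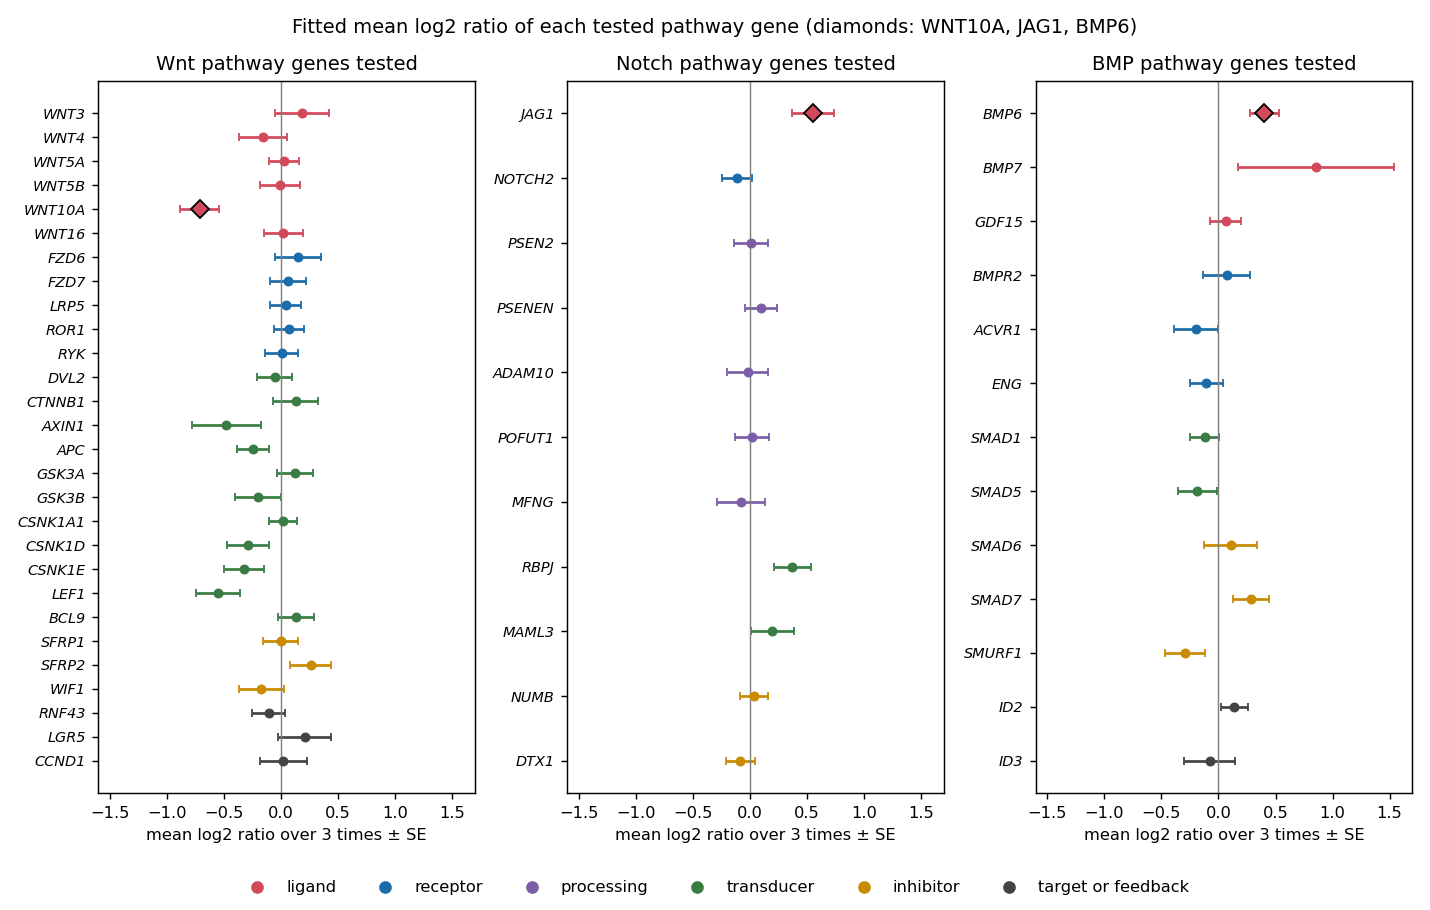
Fitted mean log2 ratio over the 3 times with its SE (horizontal axis) for the tested genes of the Wnt, Notch and BMP lists, coloured by role, with diamonds for WNT10A, JAG1 and BMP6. Of the other 49 genes none passed in limma's test after adjustment over all rows, and 2 passed at an unadjusted p under 0.05; BMP7 has the widest error.

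Among ligands, WNT10A had the lowest mean of the 6 Wnt genes tested, which is not support, since it was chosen on these ratios. The others stood at 0.18 ± 0.23 for WNT3, -0.16 ± 0.21 for WNT4, 0.03 ± 0.13 for WNT5A, -0.01 ± 0.18 for WNT5B and 0.02 ± 0.17 for WNT16 (SE, n = 6 to 8 arrays). All 5 had means within 1 SE of 0, and none passed. WNT3 stood at 2.04 on sample 2 at 8 h, and passed at 8 h when sample 1 of that time was left out (limma adjusted p = 0.041), which leaves that 1 array. Without block 2 the sign turned for WNT3 (-0.12), WNT4 (0.06) and WNT5A (-0.06). WNT2 and WNT6 had values on 5 arrays each and were not tested; WNT2 ranged from -0.39 to -0.05 and WNT6 from -0.47 to 0.33.

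JAG1 was the only Notch ligand with enough values to be tested. Of the others JAG2, with 6 arrays, ranged from -0.80 to 0.79, and DLL1, a Delta-type ligand with 4 arrays, from -0.12 to 0.68. Among BMP ligands, GDF15, a distant member of the superfamily, stood at 0.06 ± 0.13. BMP7 stood at 0.85 ± 0.68 (SE, n = 6), a mean set by 6.05 on sample 2 at 8 h, as its other 5 values lay between -0.40 and -0.06; without block 2 its mean was -0.16. Without sample 1 at 8 h, which leaves sample 2 as the lone array of that time, BMP7 passed over the 3 times (1.87, limma adjusted p = 0.0090) and at 8 h.

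Receptor genes had means within 0.20 of 0. Of 5 Wnt receptor genes 5 lay above 0, from 0.004 to 0.15 for the Frizzled gene FZD6, which was at -0.22 without block 2. NOTCH2, the only Notch receptor gene tested, stood at -0.11 ± 0.13, and ACVR1, a type I BMP receptor gene, at -0.19 ± 0.19. Without block 2 these turned to 0.03 and 0.09. None passed.

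Among signal transducers, LEF1, a DNA-binding partner of β-catenin, had the lowest mean of the other Wnt genes, -0.55 ± 0.19 (SE, n = 8), and did not pass in limma's test (adjusted p = 0.87). It lay below 0 on 7 of 8 arrays: at -0.18 and -1.13 at 8 h, -0.32, 0.02 and -1.32 at 12 h, and -0.91, -0.23 and -0.25 at 24 h. Without block 2 its mean was -0.36. Of 11 Wnt transducer genes 7 lay below 0, with a median of -0.20. RBPJ, the DNA-binding factor of Notch signalling, stood at 0.37 ± 0.16 (adjusted p = 0.87 in limma's test), was above 0 on 6 of 8 arrays, and was at 0.12 without block 2. SMAD5, a BMP transducer gene, stood at -0.19 ± 0.17, and at -0.07 without block 2.

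None of the inhibitor or target genes tested passed over the 3 times. The means of 3 Wnt inhibitor genes ran from -0.17 to 0.26, those of 2 Notch inhibitor genes from -0.08 to 0.04, and those of 3 BMP inhibitor genes from -0.30 for SMURF1, a ubiquitin ligase gene named after its value was seen, to 0.29. SFRP2, a secreted Wnt antagonist, stood at 0.26 ± 0.18, the Notch regulator gene DTX1 at -0.08 ± 0.13, and SMAD7, an inhibitory SMAD, at 0.29 ± 0.16. Without block 2 these were 0.17, 0.03 and 0.12. LGR5, a Wnt target, stood at 0.21 ± 0.23 and ID2, a BMP target, at 0.14 ± 0.12. DTX1 was listed as a Notch inhibitor and as a Notch target, and was counted with the inhibitors. No other Notch target on the list had enough values to be tested. LGR5 stood at 1.65 on sample 1 at 24 h and at 0.01 without block 2, where ID2 remained at 0.14. PSENEN, a γ-secretase subunit gene, stood at 0.10 ± 0.14, and at 0.02 without block 2. The κB consensus occurred in the upstream windows of 7 of the 40 other tested pathway genes that had one, or 17.5%. Counted the same way, it occurred for 3221 of all 27305 genes, or 11.8%, and the difference was not tested. Among the 7 were the ligand genes WNT4, WNT16 and GDF15, at -0.16, 0.02 and 0.06 over the 3 times. NOTCH2 and ID2, at -0.11 and 0.14, were also among them.

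The genes whose pattern over the 8 arrays was most like WNT10A, by Pearson correlation after dividing each array by its SD, were PARPBP (0.94), USP8 (0.93) and EXOC5 (0.91), of 2285 named genes with values on all 8. Their mean ratios were -0.28, -0.01 and -0.21, so they shared the pattern of high and low arrays and not the level. For JAG1 they were ERG (0.98), IL12RB1 (0.95) and SNX5 (0.94), each highest on sample 1 at 24 h, at 1.96, 1.37 and 2.45. For BMP6 they were PPP1R18 (0.93), GLYR1 (0.92) and ARHGEF18 (0.91), with means of -0.48, -0.08 and -0.30. The points are 8 arrays, each set against DMSO-treated cells, that fall into 3 blocks, and with unscaled values or with Spearman's correlation other genes came first, except that ARHGEF18 stayed among the 3 nearest to BMP6 with Spearman's.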

How the data were processed

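The deposited values were log2 ratios of the Cy5 and Cy3 channels, 1 column per array, for 15246 features; base 2 was read from the size of the values, no source used here gives the authors' background correction, spot filter or normalization, and no intensities were used, so precision is limited by the number of arrays. Array medians were subtracted. The platform annotation named 1 gene for 10169 features, several for 4 and none for 5073; 10128 symbols were updated through Entrez identifiers and 17 through accessions (RefSeq, GRCh38.p14). Values of a gene's features were averaged array by array. The 5411 rows measured on 2 or more arrays per time entered limma 3.58.1 in R 4.3.3 (lmFit, eBayes, a mean per time, 8 arrays), tested against 0, which leaves out the spread of the control. Tests were 2-sided with Benjamini-Hochberg adjustment over all rows at 0.05. The fit was tested on simulated data in which all arrays had a common spread and no blocks, unlike the real arrays. Tables and plots used Python 3.11.15, pandas 2.3.3 and matplotlib 3.10.9.

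The members and lists were chosen with earlier results of these data known. Named genes were the 3 ligand genes, every other tested ligand of the Wnt, Notch and BMP lists, any list gene past the threshold, for each other role the gene with the smallest p over the 3 times, and the 3 genes most like each ligand gene; NOTCH1, WNT2, WNT6, JAG2, DLL1 and SMURF1 were added after their values were seen. Alternatives were no centring, quantile or scale normalization, a looser and a stricter filter on missing values, single features in place of gene means, sample number or database block as a block, array weights, robust variances, and each array or database block left out.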

Additional observations from a re-analysis of the deposited data

Results flagged for a closer look

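The 35 series of 4 to 8 values looked at were the 3 ligand genes, their features, the named pathway genes tested, and NOTCH1, WNT2, WNT6, JAG2 and DLL1. In 9 of them 1 array lay far from the others by Dixon's criterion, which chance gives in about 1 of 20 if all arrays share 1 spread. Among the ligand genes this was feature 3 of JAG1, at 2.11 on sample 1 at 24 h. Of other Wnt genes it held for WNT3 at 2.04 on sample 2 at 8 h, WNT5B at 1.09 on sample 1 at 12 h and LGR5 at 1.65 on sample 1 at 24 h. It also held for NOTCH1 at 11.97, NOTCH2 at -0.81 and BMP7 at 6.05, all on sample 2 at 8 h, and for GDF15 at -0.49 and SMAD7 at 1.12, both on sample 1 at 24 h. These 9 values all lay on the 3 arrays of database block 2, whose SDs over features were the widest. The arrays did not share 1 spread, and NOTCH1 joined the series after its value was seen. The count of 9 of 35 therefore cannot be set against 1 of 20.

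WNT4 lay below 0 on both arrays at 8 h, at -0.13 and -1.41, and above 0 on the 2 arrays with a value at 24 h, at 0.60 and 0.28, a difference of 1.21 between the means that did not pass in limma's test over all rows (adjusted p = 0.99). JAG2 lay below 0 on both arrays at 8 h, at -0.05 and -0.80, and above 0 on the 3 arrays at 12 h, at 0.79, 0.19 and 0.44, a difference of 0.90 that was not tested.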

How the results depend on the processing

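The mean over the 3 times kept its sign and moved by less than the SD between arrays in 69 of 69 alternatives for WNT10A, JAG1 and BMP6: from -0.97 to -0.54, from 0.24 to 0.80 and from 0.19 to 0.52. Among these, robust variances and both filters on missing values could not move the means. The other alternatives share arrays with the main fit, and the genes were chosen on these ratios, so the count is a description and not support. Leaving out 1 array gave -0.84 to -0.63, 0.41 to 0.67 and 0.35 to 0.45. At 8 h alone the sign turned for feature 3 of JAG1 (-0.055) and feature 1 of BMP6 (-0.006). On the values as deposited, which lower the median of all rows by 0.11, the means were -0.84, 0.43 and 0.27. With array weights they were -0.55, 0.37 and 0.33. Under these weights JAG1 at 24 h was at 0.33, beside 0.73 in the main fit, and WNT10A at 12 h was at -0.65, beside -1.02.

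Deviations of same-numbered arrays correlated from -0.32 to 0.29 (7 pairs), and those of arrays from the same database block from 0.15 to 0.32. Same-numbered arrays at 12 h and 24 h share a block, and correlated at 0.20, 0.26 and 0.29 for samples 1, 2 and 3. Same-numbered pairs with an 8 h array do not share a block, and correlated from -0.32 to -0.15. These values are the same-block values with the sign turned, since the deviations of the 2 arrays at 8 h are exact opposites. They therefore cannot show whether the sample numbers pair the 8 h arrays with the others. With the sample number as a block 0 rows passed over the 3 times, as without it, and WNT10A was at -0.76. Rows called over the 3 times numbered 2 after quantile normalization, 2 with 1 value per time sufficing, 6 with the database block as a fixed block and 10 without block 3. At 8 h they numbered 10 with 1 value per time sufficing and 22 without block 3, and at 24 h 2 after quantile normalization. With 1 value per time sufficing and without block 3, 24 h against 8 h gave 3 and 11 rows and 12 h against 8 h gave 5 and 11. Without 1 array the calls ranged from 0 to 58 over the 3 times, 0 to 131 at 8 h, 0 to 77 for 24 h against 8 h and 0 to 78 for 12 h against 8 h, the highest each time without sample 1 at 8 h; that fit leaves 1 array at 8 h, assumed to vary like the others.

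The Wnt list's median, 0.016, was -0.10 as deposited, -0.093 after quantile and -0.063 after scale normalization, -0.054 with features on their own and -0.069 without block 2. The BMP list's, -0.008, was -0.11 as deposited, -0.059 after quantile normalization, -0.11 with 1 value per time sufficing, 0.063 with values on all 8 arrays, 0.091 with features on their own, -0.059 with the database block as a fixed block, -0.070 with array weights and -0.066 without block 2, and ran from -0.073 to 0.043 without 1 array.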

Other observations

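NOTCH1, the gene of the best known Notch receptor, was read by 1 feature with values on 5 arrays and did not meet the filter of 2 arrays per time. It stood at 11.97 on sample 2 at 8 h and between -0.36 and -0.04 on the other 4 arrays. With 1 value per time sufficing it passed over the 3 times (3.84, limma adjusted p = 0.020) and at 8 h (adjusted p = 0.0028), and it passed at both when sample 1 at 8 h was left out; in each case sample 2 was the lone 8 h array with a value. On that array 144 of 10456 features had a size over 5 on the log2 scale, BMP7 among them, against 54 of 8252 on sample 1 at 12 h, 13 of 12310 on sample 3 at 12 h, and 0 on each of the 3 arrays of database block 3. No feature of WNT10A, JAG1 or BMP6 exceeded 2.11 in size on any array.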
